A study of Mus musculus with 30 samples.

Results

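Hearts of mice killed 3 days after carbon black reached their airways were compared with hearts of vehicle mice killed on the same day, over every mouse microRNA (miRNA) on the array. The members were the samples labelled as day 3 heart at the high dose of Printex 90 or as day 3 control heart, 11 of the 30 samples of the series: 5 exposed and 6 vehicle mice. All were female C57BL/6 mice acquired at 5 to 6 weeks of age. The exposed mice had received 162 µg of Printex 90, a commercial carbon black of nanosized particles, in 40 µl of fluid followed by 150 µl of air. The vehicle fluid, per the labels, was saline (0.9% NaCl) in which 10% by volume was cell-free lung lavage fluid from mice of the same strain. RNA enriched for small RNA was labelled in 1 colour, each mouse gave its own RNA, and 8 arrays shared a slide. The series text gives 6 mice per group; the scanner file of exposed replicate 3 holds no signal, so the tests below used 4 exposed and 6 vehicle mice, and replicate 3 entered only through the deposited value table.

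A miRNA is a short RNA that guides a silencing complex to messenger RNAs, mainly through its seed, bases 2 to 8 from the 5′ end. In heart, miR-1 and miR-133 are made in muscle, miR-208a and miR-499 are carried in introns of myosin genes, and miR-451 and miR-144 come from one transcript of the red cell lineage. Particles that settle in the lung are known to raise an acute phase response and inflammatory signals that can reach the circulation. The comparison therefore addressed whether heart miRNA levels differed while the lung response was still recent.

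The sequences of the miRNAs that the values below turn on are shown first, 5′ to 3′, with the seed in capitals, from RefSeq on GRCm38.p6. Of the 306 miRNAs tested, 62 carry their array name unchanged in that table; of the 25 read from it, 20 were matched through the later name of the same arm. The first set is the miR-10 and miR-99 family, shown because its members differ in few bases and differed in what the arrays read.
miR-10a: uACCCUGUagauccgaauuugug
miR-10b: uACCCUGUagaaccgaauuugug
miR-99a: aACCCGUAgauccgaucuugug
miR-100: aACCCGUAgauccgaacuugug
miR-10a lies at chr11:96317186-96317208 on the plus strand within the span of Hoxb3, and miR-10b at chr2:74726074-74726096 on the plus strand within the spans of Hoxd3 and Hoxd4. They share a seed and differ by U12A, counted from 1 at the 5′ end with the base of miR-10a first. With 1 base between them, a probe for one may also have read the other, which was not tested. miR-99a and miR-100 differ from each other by U16A, counted the same way with miR-99a first.

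The second set holds those of the 10 miRNAs with the smallest p among the lower values for which the table has a sequence, 7 in all, shown because one exposed mouse stood far apart from the others for most of them.
miR-2137: gCCGGCGGgagccccagggag
miR-2861: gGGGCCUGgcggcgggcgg
miR-5126: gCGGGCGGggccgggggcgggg
miR-211*: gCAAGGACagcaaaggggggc
miR-1224: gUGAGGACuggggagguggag
miR-1895: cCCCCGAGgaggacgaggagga
miR-494: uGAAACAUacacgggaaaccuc
G and C made up 85.7% of miR-2137, 94.7% of miR-2861, 100% of miR-5126, 66.7% of miR-211* and of miR-1224, 72.7% of miR-1895 and 45.5% of miR-494. Too few of the 306 tested names matched the table for a check of base composition over all of them, so that check is void. No 2 of the 7 share a seed.

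The third set holds miR-500 and miR-190b, from the higher values, with the 2 arms of the red cell hairpin miR-144.
miR-500: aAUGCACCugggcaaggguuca
miR-190b: uGAUAUGUuugauauuggguug
miR-144: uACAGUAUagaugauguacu
miR-144*: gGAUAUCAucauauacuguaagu
G and C made up 54.5% of miR-500, 31.8% of miR-190b, 30.0% of miR-144 and 30.4% of miR-144*; both miR-10 members were at 43.5%. The array names miR-504*, miR-1927, miR-3070b-3p, miR-3099, miR-5105 and miR-5109 are named only.

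The tissue label held against its markers. The log2 scaled signal of miR-1a was 16.00 ± 0.11 (SD, n = 4) in exposed and 15.93 in vehicle mice. All 10 tested muscle miRNAs stood within 0.14 of vehicle, which compares the groups and does not bear on the label. None of the 11 epithelial and none of the 4 pancreatic markers on the array was detected on any day 3 array. Of 8 brain markers miR-128 was detected, of 7 cilia markers miR-34b-3p, and of 2 liver markers miR-122. In whole tissue, fewer cells of a type and less RNA per cell cannot be told apart.

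By SD, the share of detected spots varied more between the vehicle arrays than between the exposed arrays, but this spread was not tested. A spot counted as detected when Feature Extraction flagged it well above background. That share averaged 24.2% ± 1.45 (SD, n = 4) in exposed and 23.5% ± 3.58 (n = 6) in vehicle mice. For the difference in means, p was 0.714 (exact permutation test over 210 splits, two-sided). Vehicle replicates 4 and 6 were the dimmest, at 18.4% and 20.2% of spots and 231 and 232 detected miRNAs. Vehicle replicates 1 and 2 were the brightest, at 27.5% and 26.8% with 339 and 326 detected miRNAs. Replicates 1 and 2 of both groups shared slide 1, exposed replicate 4 and vehicle replicate 4 shared slide 3, exposed replicate 5 and vehicle replicates 5 and 6 shared slide 4, and vehicle replicate 3 alone lay on slide 2. The median 95% interval of a difference reached 0.35 on the log2 scale to either side, or 1.27-fold, and the number of arrays limits this precision.

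The array design carries 1079 mouse miRNAs, and the 10 day 3 arrays with a signal all detected 220 of them, some detected 133 more, and none detected 726. Exposed hearts added no miRNA of their own: 0 were detected on exposed arrays alone, and 27 on vehicle arrays alone, of which none on every vehicle array. The 306 tested were those with a probe detected on at least 4 arrays of a group of the series; 47 others, detected on at most 5 day 3 arrays, were not tested. With 6 arrays against 4, the vehicle group had more chances to detect a dim miRNA. Detected on all 4 exposed and on at most 3 of 6 vehicle arrays were miR-190b (2), miR-3099 (3), miR-1894-3p (3) and miR-511-5p (3).

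Heart miRNA levels on day 3 did not separate exposed from vehicle mice. By limma with Benjamini-Hochberg adjustment, 0 of 306 miRNAs (0%) passed an adjusted p of 0.05, the smallest adjusted p was 0.999, and 1 (0.327%) had an unadjusted p under 0.05. The exposed and vehicle values overlapped for every tested miRNA, so that 0 of 306 (0%) lay apart. Differences, given throughout as Printex 90 minus vehicle on the log2 scale, had a median of 0.03 and an interquartile range of −0.03 to 0.11. They ran from −0.82 to 0.72, with 11 beyond 0.5 in either direction and 0 beyond 1.

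The intervals bound how large an undetected difference could be. For 186 miRNAs (60.8%) the 95% interval lay within 1.5-fold of no difference in both directions, and for 287 (93.8%) within 2-fold. For miR-1a the interval ran from −0.08 to 0.22, for miR-133b from −0.21 to 0.19, and for miR-21 from −0.16 to 0.31. For the liver miRNA miR-122, by contrast, it ran from −2.32 to 0.68, a span that holds differences of more than 2-fold toward lower values.

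Higher values were more common than lower ones, 195 (63.7%) against 111 (36.3%), but the sign of the median changed with the scaling and the arrays used. The median over all 306 was 0.13 with no scaling, −0.06 with scaling on all probes, and −0.06 without the dim vehicle replicates 4 and 6. In 165 of 306 miRNAs the range of the 4 exposed mice lay inside that of the 6 vehicle mice. With 6 mice against 4, the vehicle group had more chances to hold both extremes, and the count due to this was not worked out. The vehicle SD was the larger in 202. All 4 exposed mice stood above the vehicle mean for 14 miRNAs (4.58%) and below it for 15 (4.9%).

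The smallest unadjusted p belonged to miR-10b, a miRNA of the Hox clusters known to act on vessel growth in zebrafish. Its log2 signals were 6.64, 6.32, 6.39 and 6.27 in exposed replicates 1, 2, 4 and 5, and 5.82, 4.74, 5.72, 5.34, 6.56 and 6.07 in vehicle replicates 1 to 6. The exposed mice sat close together at the top of the vehicle range, and vehicle replicate 5 stood above all but 1 of them. The difference was 0.70 ± 0.29 (SE), or 1.62-fold with a 95% interval of 1.08 to 2.44, and did not pass (unadjusted p = 0.022, adjusted p = 0.999 by limma). Within slides it was 1.20 on slide 1, 1.05 on slide 3 and −0.04 on slide 4. Without vehicle replicate 2, the lowest mouse, it was 0.50.

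Its near twin miR-10a shared the lowest mouse, but not the order of the others. Exposed replicate 1, the highest exposed mouse for miR-10b, was the lowest of them for miR-10a. Its log2 signals were 6.66, 7.13, 7.55 and 7.25 in the exposed replicates and 6.45, 5.01, 6.71, 6.33, 7.03 and 7.47 in the vehicle replicates. Vehicle replicate 2 was again the lowest, by 1.32 from the next mouse, and vehicle replicate 6 stood above 3 of the 4 exposed mice. The difference was 0.65 ± 0.38 and fell to 0.35 without vehicle replicate 2 (adjusted p = 0.999 by limma). Within slides it was 1.16, 1.22 and −0.01, in the same order of slides.

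The rest of the family, drawn up with miR-125, was near vehicle. miR-99a was at 0.00 ± 0.09, miR-99b at −0.03 ± 0.08, miR-100 at −0.07 ± 0.14, miR-125a-5p at 0.07 ± 0.10 and miR-125b-5p at 0.01 ± 0.10. Of 7 tested members 5 were higher and 2 lower by value with a median of 0.01, and 0 were called. miR-99a and miR-100, whose seed differs from that of miR-10, read brighter and had narrower ranges between vehicle mice. miR-99a ranged from 10.44 to 10.82 there and miR-100 from 8.40 to 9.27, against 5.01 to 7.47 for miR-10a.

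A second group of higher values shared one order of arrays. miR-504* had log2 signals of 6.65, 6.79, 6.95 and 6.83 in the exposed replicates and 7.29, 7.04, 6.11, 4.99, 5.98 and 5.33 in the vehicle replicates. Vehicle replicates 1 and 2 were above every exposed mouse, and vehicle replicates 3 to 6 below every one. miR-1927 repeated this order, with 6.51, 6.58, 6.86 and 6.76 against 7.21, 6.95, 5.98, 4.78, 5.79 and 5.01. miR-3070b-3p, miR-500, miR-190b and miR-3099 did so as well: in each, vehicle replicates 1 and 2 lay at or above most exposed mice and replicates 3 to 6 below all of them.

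**Figure D1:**
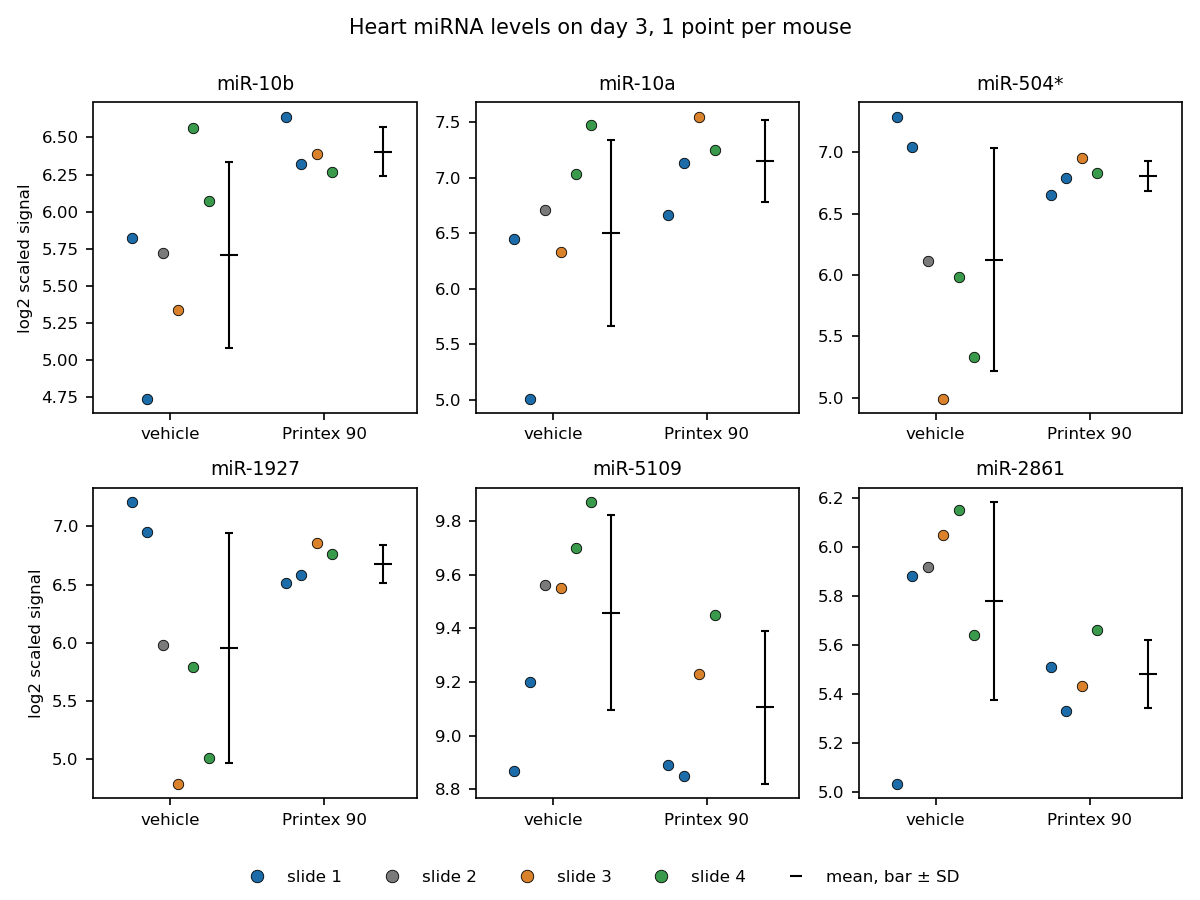
Log2 scaled signal of 6 miRNAs in each day 3 heart (vertical axis of each panel), for 6 vehicle and 4 Printex 90 mice, coloured by slide, with the mean and SD of each group beside the points. Vehicle replicates 1 and 2, on slide 1, lie above the exposed mice for miR-504* and miR-1927, and the vehicle range covers most of the exposed range in all 6 panels.

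In this group miR-504* differed by 0.68 ± 0.40, miR-1927 by 0.72 ± 0.42, miR-3070b-3p by 0.67 ± 0.40, miR-500 by 0.45 ± 0.27, miR-190b by 0.54 ± 0.37 and miR-3099 by 0.65 ± 0.45. None passed (adjusted p = 0.999 by limma). Within slides miR-504* was at −0.45 on slide 1, 1.96 on slide 3 and 1.18 on slide 4, and miR-1927 at −0.54, 2.07 and 1.36. Without the dim vehicle replicates 4 and 6 miR-504* was at 0.20. miR-190b was well above background on 4 of 4 exposed and 2 of 6 vehicle arrays, and miR-3099 on 4 and 3, so part of their vehicle values lay at the floor of 4.04.

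Some probes for miRNAs of mouse herpesviruses read the same order of arrays. The probe of mcmv-miR-m01-2, a miRNA of mouse cytomegalovirus, gave 5.57, 5.58, 5.99 and 5.86 in the exposed replicates and 6.30, 6.04, 4.56, 4.04, 4.72 and 4.04 in the vehicle replicates. mghv-miR-M1-11-5p, of mouse gammaherpesvirus, gave 5.41, 5.44, 6.02 and 5.91 against 6.24, 5.88, 4.54, 4.04, 4.92 and 4.04. Vehicle replicate 1 was the highest for both probes, and vehicle replicates 3 to 6 were below every exposed mouse. Of the 9 viral probes with values, 3 had vehicle replicates 3 to 6 below every exposed mouse and 6 did not: for mcmv-miR-M23-1-5p the exposed mice ran from 5.93 to 6.28 and the vehicle mice from 5.99 to 6.35, with vehicle replicate 4 the highest. Of 57 viral miRNAs on the array, 9 were detected on an exposed and 10 on a vehicle day 3 array. Among the vehicle arrays, brightness also moved with this order, replicates 4 and 6 being the dimmest and 1 and 2 the brightest. Exposed replicate 2, at 22.1% of spots, was dimmer than vehicle replicates 3 and 5, at 24.0% and 23.8%, but read above them for both probes. The other exposed arrays, at 24.4% to 25.3%, were brighter than these vehicle arrays. The part of brightness or of this order in the result was not tested.

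miR-30d* and miR-338-3p complete the 10 higher values with the smallest p. miR-30d*, the passenger arm of a miR-30 hairpin, was at 4.76, 4.38, 4.96 and 4.77 in the exposed mice and between 4.04 and 4.78 in the vehicle mice, at a difference of 0.23 ± 0.11. It rested on 1 probe, well above background on 3 exposed and 3 vehicle arrays, and normexp background correction turned it to −0.02. miR-338-3p, which lies within the span of Aatk, was at 6.77, 6.51, 6.47 and 6.73 against 6.06 to 7.02, a difference of 0.25 ± 0.18. The highest heart for it was vehicle replicate 5, above all 4 exposed mice.

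The lower values with the smallest p were led by miR-5109, at 8.89, 8.85, 9.23 and 9.45 in the exposed replicates and 8.87, 9.20, 9.56, 9.55, 9.70 and 9.87 in the vehicle replicates. All 4 exposed mice were below the vehicle mean, and vehicle replicate 1 was lower than 3 of them. The difference was −0.35 ± 0.19, with −0.16, −0.31 and −0.33 within slides 1, 3 and 4. miR-2861 was at 5.51, 5.33, 5.43 and 5.66 against 5.03, 5.88, 5.92, 6.05, 6.15 and 5.64, a difference of −0.29 ± 0.18. Vehicle replicate 1 was the lowest mouse of all for miR-2861, vehicle replicates 2 to 5 were above every exposed mouse, and vehicle replicate 6 fell within the exposed range.

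Others in this group were miR-5105 at −0.39 ± 0.27, miR-5126 at −0.37 ± 0.25, miR-211* at −0.35 ± 0.24, miR-2137 at −0.26 ± 0.15, miR-494 at −0.23 ± 0.18, miR-1224 at −0.21 ± 0.15, miR-320 at −0.13 ± 0.09 and miR-1895 at −0.13 ± 0.10. None passed (adjusted p = 0.999 by limma). All 4 exposed mice were below the vehicle mean for 7 of the 10, against 15 of all 306 tested (4.9%). These 10 were chosen by p in the same mice, so that count adds no evidence of its own. Vehicle replicate 1 was the lowest of the 10 arrays for 4 of these miRNAs, against 10 of all 306 tested. miR-2137 was well above background on 2 exposed and 3 vehicle arrays only.

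The fifth exposed mouse, replicate 3, stood far on the other side for most of these miRNAs, but not for miR-320 (6.46 against a mean of 6.48 in the other 10 mice) or miR-1895 (6.84 against at most 6.83). In the deposited value table, which gives log2 values for all 11 mice, miR-5109 was at 12.11 in replicate 3, against 8.94 to 9.73 in the other 4 exposed and 8.87 to 10.16 in the vehicle mice. miR-1224 was at 11.30 against 7.45 to 8.37 in the other 10 mice, miR-2861 at 8.99 against 6.35 to 7.05, miR-211* at 9.12 against 6.45 to 7.52 and miR-5126 at 11.01 against 8.10 to 9.84. Of the 10 miRNAs most raised in replicate 3 relative to the mean of the other 10 mice, 7 were among the 10 lower values named above. The other 3 were miR-3960, miR-3102* and miR-1897-5p.

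**Figure D2:**
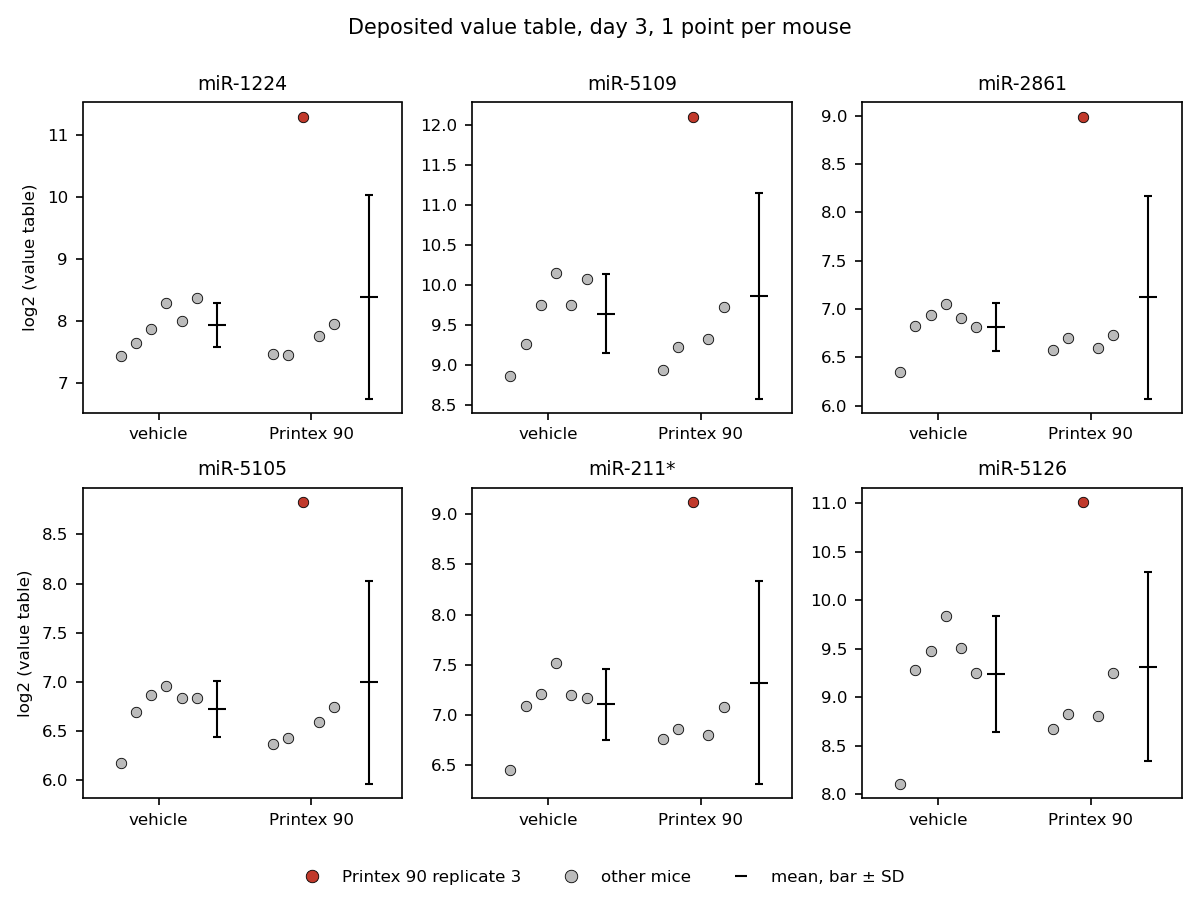
Log2 values of the deposited value table for 6 miRNAs (vertical axis of each panel), for 6 vehicle and 5 Printex 90 mice, with the mean and SD of each group beside the points. Exposed replicate 3, in red, lies above all 10 other mice in each panel, by the widest margin for miR-1224 (11.30 against at most 8.37).

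Replicate 3 was above all 10 others for 24 of 306 miRNAs and below all for 53, but it exceeded the highest by more than 0.5 for 12 and fell short of the lowest by more than 0.5 for 0. The SD of its deviations from the mean of the other mice was 0.43, against 0.16 to 0.29 for the others. It had no flags or background readings here, so its array quality is not known. It also had the lowest miR-1a of the exposed mice, at 15.58 against 15.89 in the next.

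Whether that mouse was counted set the sign of this group. In the value table miR-5109 was 0.22 ± 0.36 (SE) with replicate 3 and −0.34 ± 0.23 without it, miR-2861 0.31 ± 0.27 and −0.16 ± 0.12, miR-1224 0.45 ± 0.41 and −0.28 ± 0.17, and miR-5126 0.07 ± 0.34 and −0.35 ± 0.28. Of the 10 lower values, 2 kept a negative sign with it and 10 without it. Of the 10 higher values, 8 were positive with it and 10 without it. Both sets were chosen by p and direction from the scanner signals of the same mice. The counts without replicate 3 were thus nearly fixed in advance and add no evidence of their own. For miR-10b and miR-10a replicate 3 lay among the other exposed mice, at 7.06 and 7.39.

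Over all 306 miRNAs the value table with 5 exposed and 6 vehicle mice also gave 0 calls (0%) by limma, with 2 unadjusted p under 0.05 (0.654%) and a smallest adjusted p of 0.972. The 2 were miR-504* at 0.37 ± 0.18 and miR-500 at 0.24 ± 0.12. No miRNA separated the groups there either (0 of 306, 0%). Its signs matched those of the scanner signals for 204 miRNAs (66.7%), which share 10 of the 11 mice. The value table is not background-subtracted as far as its values show, and the differences of the dim miRNAs named here were smaller in it: miR-10b was at 0.23 ± 0.18 and miR-10a at 0.32 ± 0.26.

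The lists of miRNAs by tissue and function are described by counts and medians, beside a median of 0.03 and 63.7% higher over all tested, and 0 members of any list were called. Muscle miRNAs were higher by value in 7 of 10, with a median of 0.02. miR-1a, which restrains growth and conduction genes in heart muscle, was at 15.87, 15.96, 16.08 and 16.11 in exposed and 15.97, 15.93, 15.92, 16.04, 15.74 and 16.00 in vehicle mice. miR-133a was at −0.03 ± 0.10, miR-133b at −0.01 ± 0.10, miR-208a-3p at 0.02 ± 0.11, its sister miR-208b at 0.04 ± 0.16, and miR-499 at 0.00 ± 0.15. In the value table with exposed replicate 3, the differences of this list ran from −0.11 to 0.05, and only miR-206 was above vehicle. Without replicate 3 they ran from −0.14 to 0.05 there.

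Inflammation miRNAs were higher by value in 4 of 5 tested, with a median of 0.07, and 7 of the 12 on the array were detected on no day 3 array. miR-146a, a brake on Toll-like receptor signalling, was at 6.86, 6.47, 6.56 and 6.87 in exposed and 6.30 to 6.82 in vehicle mice, 0.11 ± 0.17. miR-155, induced in activated macrophages and lymphocytes, was at 5.84 to 6.11 against 5.69 to 6.09, and miR-21, raised in many injured tissues, at 10.47 to 10.67 against 10.35 to 10.74. Each pair of ranges overlapped almost fully. miR-132 was at −0.09 ± 0.17 and miR-212-3p, from the same locus, at 0.02 ± 0.37.

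The leukocyte list was split 3 to 2 by value around a median of 0.03. The blood cell miRNA miR-142-3p was at −0.03 ± 0.18, lymphocyte miR-150 at 0.12 ± 0.18 and myeloid miR-223 at 0.03 ± 0.10, with 8.15 to 8.41 in exposed and 7.97 to 8.59 in vehicle mice. Endothelial miRNAs were lower in 7 of 10, with a median of −0.02, and miR-126-3p, which sustains vessel integrity, was at −0.04 ± 0.08. miR-27a was 1 of 15 miRNAs, of all 306 tested (4.9%), that lay below the vehicle mean in all 4 exposed mice. It was at 11.21, 11.04, 11.16 and 11.22 against 11.14 to 11.34, a difference of −0.09 ± 0.09.

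Red cell miRNAs were lower by value in 3 of 4, with a median of −0.16. miR-451 was at 13.68, 14.80, 13.75 and 13.73 in the exposed and 14.18, 14.27, 14.09, 13.82, 14.77 and 13.89 in the vehicle replicates. Of these 10 hearts, exposed replicate 2 held the highest value and the other 3 exposed mice the lowest 3. Exposed replicate 3, in the value table alone, was near the top at 14.62, against a mean of 14.09 in the other 10 mice, and with it the difference there was −0.11 ± 0.25, against −0.24 ± 0.26 without it. miR-144, from the same transcript, repeated the pattern at 9.93, 11.04, 9.84 and 9.94, with the same exposed mouse on top. miR-144*, its other arm, was at 5.69, 6.83, 5.81 and 5.60, with vehicle replicate 6 the lowest of all at 5.56. The median of the list was −0.44 without exposed replicate 2, and −0.05 without vehicle replicate 5, the next highest mouse for all 3 of these. Within slides miR-451 was at 0.02, −0.07 and −0.60.

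Fibroblast and matrix miRNAs had values at or below vehicle in all 9 tested, from −0.09 to 0.00 with a median of −0.06. miR-29a, which targets collagen transcripts, was at 12.47, 12.46, 12.65 and 12.77 in exposed and 12.37 to 13.00 in vehicle mice. miR-29b and miR-29c were each at −0.06, with SEs of 0.09 and 0.10. miR-214 was at −0.06 ± 0.18 and miR-199a-5p at −0.09 ± 0.15. The highest mouse for miR-29a, miR-199a-5p and miR-214 was vehicle replicate 5, and without it miR-199a-5p was at 0.04, miR-214 at 0.09 and the median of the list at −0.01. With no scaling the median was 0.06, where that of all tested was 0.13.

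Smooth muscle miR-143 and miR-145 were at −0.10 ± 0.23 and −0.07 ± 0.19. Vehicle replicate 5 was the highest for both, at 10.53 and 7.16 against at most 10.09 and 6.63 in the other 9 mice, and without it the differences were −0.01 and 0.04. The same mouse held the highest miR-140, a miRNA best known from cartilage, at 8.89, where the other 9 mice lay between 7.15 and 7.38. Its other arm miR-140* was at 8.64 in that mouse and between 6.99 and 7.22 in the rest. Both were named after their values were seen. In the value table they stood at 9.00 and 8.77 in this mouse, against at most 7.93 and 8.16 in the other 10. The same heart had the lowest miR-208a-3p, at 8.39 against 8.70 or more, and the lowest miR-1a, at 15.74 against 15.87 or more.

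**Figure D3:**
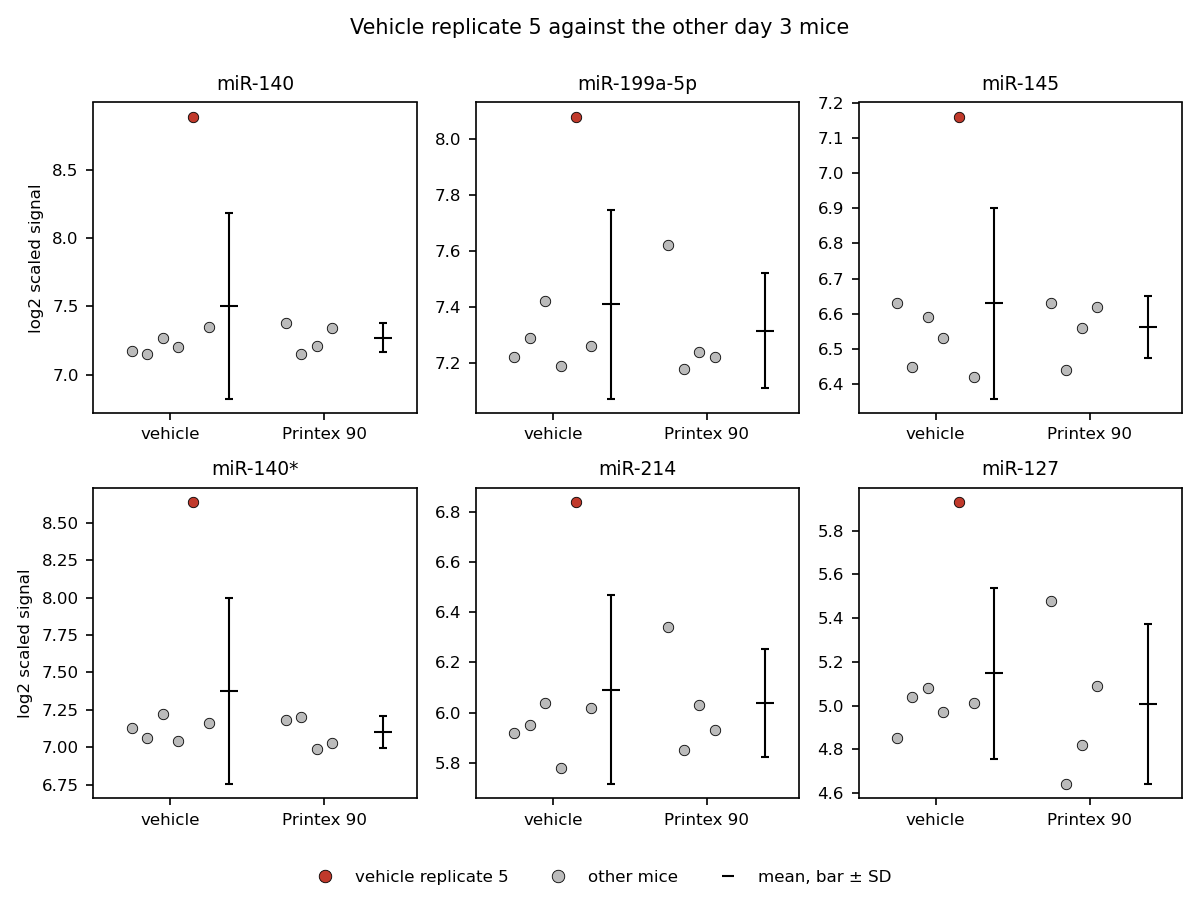
Log2 scaled signal of 6 miRNAs (vertical axis of each panel) in 6 vehicle and 4 Printex 90 hearts, with the mean and SD of each group beside the points. Vehicle replicate 5, in red, is the highest of the 10 mice in every panel, by 1.51 for miR-140 and 1.42 for miR-140*.

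Families with a shared seed had small differences. The let-7 family, which holds back growth genes, was higher by value in 9 of 9 with a median of 0.06, but the median was −0.03 when scaled on all probes. let-7a was at 13.13, 12.92, 13.16 and 13.29 in exposed and 12.90 to 13.22 in vehicle mice. In the value table with exposed replicate 3, the differences of the family ran from −0.10 to 0.01, and only miR-98 was above vehicle. Without replicate 3 they ran from −0.03 to 0.06 there. The miR-30 family, both arms counted, was higher in 10 of 11 with a median of 0.08, and at −0.01 when scaled on all probes. Its abundant guide arms miR-30a and miR-30e were at 0.00 ± 0.07 and 0.03 ± 0.10, and miR-30b and miR-30c at 0.14 ± 0.19 and 0.17 ± 0.22.

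The miR-17 clusters, which favour cell division, were split 5 to 3 with a median of 0.00, and the miR-15 and miR-16 family 4 to 3, also at 0.00. miRNAs tied to hypoxia or p53 were split 2 to 3, with miR-210 at 0.07 ± 0.09 and miR-34a at −0.02 ± 0.08. The stress and metabolism list was split 5 to 5 with a median of −0.01, among them miR-378, carried in the gene of a mitochondrial coactivator, at 0.08 ± 0.06 and miR-320 at −0.13 ± 0.09. miR-26 and miR-101 were higher in 4 of 5, with a median of 0.01.

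The Sfmbt2 list, drawn up by names that begin with miR-297, miR-466, miR-467 or miR-669, was higher by value in 39 of 42 with a median of 0.12. It moved with array brightness, whose part was not tested: the median was −0.23 without the dim vehicle replicates 4 and 6, 0.00 with the share of spots above background as a covariate, and −0.44, 1.05 and 0.09 within slides 1, 3 and 4. The Dlk1-Dio3 list had 6 tested members of 36 on the array, split 3 to 3 with a median of 0.03. Among them miR-376c went from the floor of 4.04 to 7.40 in exposed and from 4.04 to 7.31 in vehicle mice, which gave 0.63 ± 0.93. The list of miRNAs with late numbers, from miR-5097 to miR-5127 among those tested, was lower in 7 of 9, with a median of −0.07, and holds miR-5109, miR-5126 and miR-5105 described above.

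**Figure D4:**
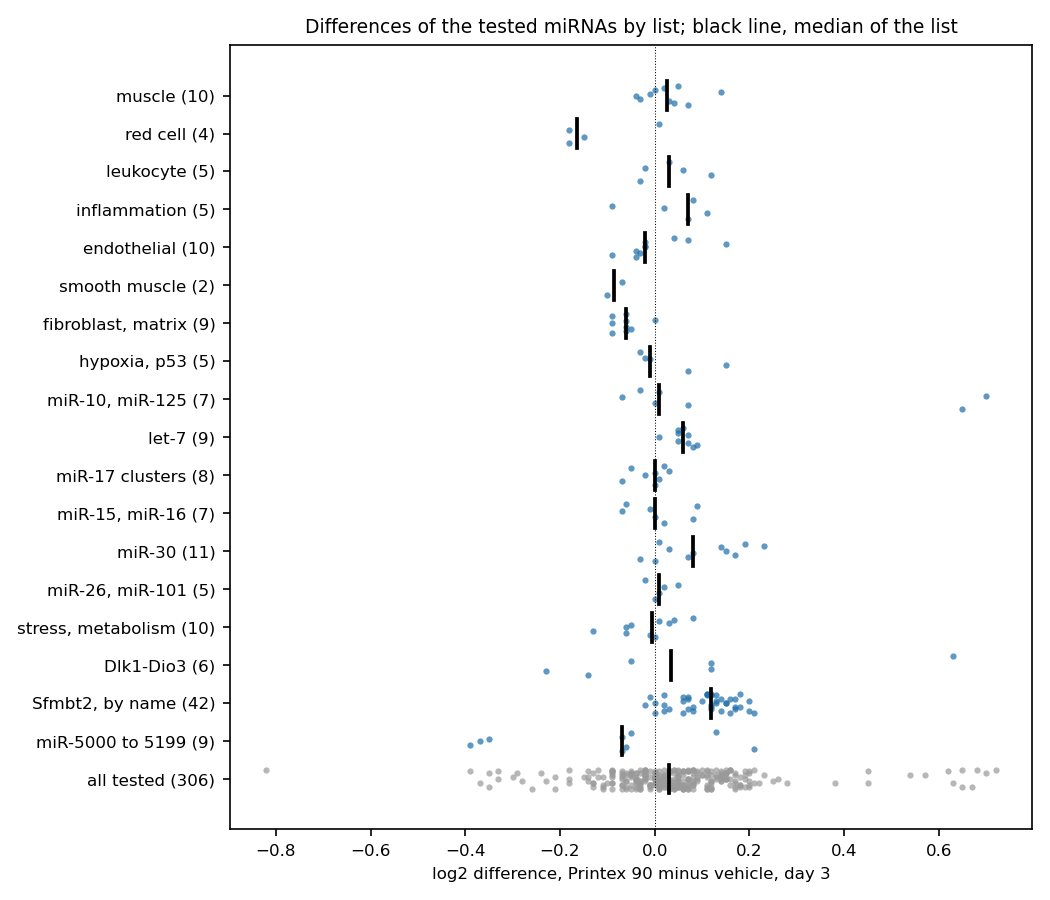
Differences of each tested miRNA (horizontal axis, log2, Printex 90 minus vehicle on day 3) by list, for lists of 2 or more tested members, with the number tested in brackets and a black line at the median of each list. Medians of the lists drawn lie between −0.16 for red cell miRNAs and 0.12 for the Sfmbt2 list, and miR-10a and miR-10b stand at 0.65 and 0.70 apart from the other 5 of their list.

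Arms of one hairpin gave a further comparison, since they come from the same precursor. Of 40 hairpins with both arms tested, the arms were both higher in 22, both lower in 8 and opposite in 10. Over all tested miRNAs 63.7% were higher, and how many pairs would share a sign without any link was not tested. Some pairs, such as miR-669b and miR-669b*, belong to the Sfmbt2 list. Differences that round to 0.00, such as that of miR-22, were counted by their sign. miR-140 and miR-140* differed from vehicle by −0.24 and −0.28, but by 0.04 and −0.02 without vehicle replicate 5. miR-144 and miR-144* differed by −0.18 and −0.15. miR-211 and miR-211* went opposite ways, at 0.11 ± 0.27 and −0.35 ± 0.24. miR-1224 and miR-1224* did so too, at −0.21 ± 0.15 and 0.18 ± 0.37.

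The day 3 difference was then set against those of day 1 (6 exposed, 4 vehicle mice) and day 28 (5 and 4), within the same fit. By limma 0 of 306 miRNAs (0%) differed between day 3 and day 1, with 2 unadjusted p under 0.05 (0.654%), and 0 (0%) between day 3 and day 28, with 1 (0.327%). miR-10b was at −0.23 ± 0.29 on day 1 and −0.26 ± 0.30 on day 28. Its day 3 value exceeded these by 0.93 ± 0.40 (adjusted p = 0.735 by limma) and 0.95 ± 0.41 (adjusted p = 0.982 by limma), which did not pass. miR-10a was at −0.21 ± 0.38 and −0.18 ± 0.39.

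**Figure D5:**
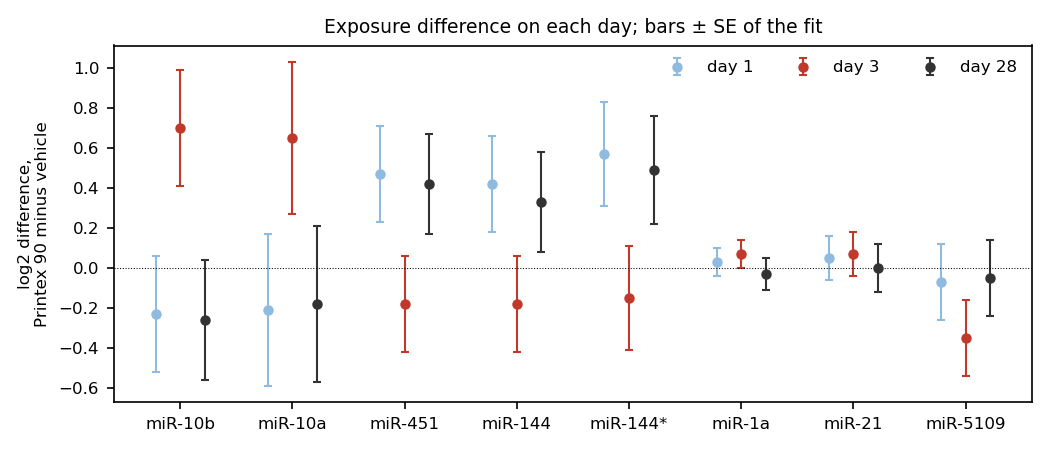
Difference between Printex 90 and vehicle hearts (vertical axis, log2) on days 1, 3 and 28 for 8 miRNAs, with bars of 1 SE from the fit. On day 3 miR-10b is at 0.70 and miR-451 at −0.18, and on days 1 and 28 miR-10b is at −0.23 and −0.26 and miR-451 at 0.47 and 0.42.

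The red cell miRNAs had the opposite order of values between days. For miR-451 the day 1 difference was 0.47 ± 0.24 and the day 28 difference 0.42 ± 0.25, around the −0.18 ± 0.24 of day 3. For miR-144* they were 0.57 ± 0.26 and 0.49 ± 0.27, around −0.15 ± 0.26. The day 3 value of miR-451 was lower than that of day 1 by −0.65 ± 0.34 and than that of day 28 by −0.60 ± 0.35, neither past the threshold (adjusted p = 0.735 and 0.982 by limma). miR-204 was at −0.26 ± 0.12 on day 1 and 0.08 ± 0.12 on day 3, and miR-335-5p at −0.31 ± 0.18 and 0.20 ± 0.18. Across the 306 miRNAs, which are not independent, the day 3 differences correlated with those of day 1 at −0.55 and with those of day 28 at 0.45, as a description. They shared a sign with day 1 for 95 (31.0%) and with day 28 for 205 (67.0%); the days share no mice but share slides.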

How the data were processed

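Per the file headers, Feature Extraction 10.7.3.1 read the authors' images. The deposited scanner files hold, for each spot, a signal intensity on a linear scale with background removed. The deposited value table holds log2 values per miRNA for all 30 samples. Its ranks followed the median pixel signal on 29 arrays (Spearman of at least 0.995), its column medians were 5.78 to 5.82, and the scaling of its columns is not given in the sources used here.

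Here, spots were averaged per probe, leaving out controls and outliers. Detection of a probe needed a share of at least 0.5 of spots well above background. Each array was divided by the 75th percentile of the 418 probes that all 29 arrays detected, then floored at 16.5 (4.04 after log2). Probes detected on 4 or more arrays of some group were averaged into miRNA values: 621 probes for 306 miRNAs, 59 of these with 1 probe. Saturated spots numbered 0, and 1.88% of values lay at the floor.

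One mean for each of the 6 groups was fitted to the 29 arrays (limma 3.58.1, R 4.3.3), giving 3 two-sided comparisons, with Benjamini-Hochberg adjustment over 306 miRNAs and a threshold of 0.05. The median residual SD was 0.27. The fit was tested on simulated data. Named miRNAs were the 10 with the smallest p per direction, a fixed set, up to 4 per list, those detected on all arrays of one group and at most a share of 0.5 of the other, and 3 per direction for days and the value table. Members and lists were chosen with earlier results of these data known. normexp used the median pixel signal in place of the mean, which is not a column of the files.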

Additional observations from a re-analysis of the deposited data

Results flagged for a closer look

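Within groups of 4 to 6 mice, an array counted as outlying when its gap to the nearest other mouse, as a share of the group's range, passed Dixon's critical value. Of 297 groups tested 33 did. Chance flags about 1 in 20 where groups are independent. Here the exposed mice entered by scanner signal and again by value table, and related miRNAs counted separately. The 33 can therefore not be set against that share. No explanation of these is weighed.

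Vehicle replicate 5 was outlying high for miR-199a-5p (ratio 0.747), miR-214 (0.751), miR-143 (0.675), miR-145 (0.718), miR-127 (0.793) and miR-338-3p (0.638), and low for miR-208a-3p (0.639) and miR-34a (0.718). Vehicle replicate 1 was outlying low for miR-5126 (0.668), miR-5105 (0.730) and miR-211* (0.645).

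Exposed replicate 2 was outlying high for the red cell miRNAs miR-451 (0.938) and miR-144 (0.921) and, in the value table, miR-144* (0.851), and low for miR-342-3p (0.900), miR-378* (0.901) and, in the value table, miR-133a (0.718). Exposed replicate 1 was outlying high for miR-143 (0.852) and miR-199a-5p (0.864), the miRNAs that were also high in vehicle replicate 5, and in the value table for miR-434-3p (0.773). Exposed replicate 5 was outlying high for miR-486* (0.902) and, in the value table, for miR-208a-3p (0.726) and miR-19b (0.747), and exposed replicate 4 there for miR-30d* (0.762).

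Exposed replicate 3, in the value table, was outlying high for miR-1224 (0.868), miR-5109 (0.750), miR-2861 (0.938), miR-5105 (0.849), miR-211* (0.862), miR-5126 (0.752), miR-2137 (0.813) and miR-494 (0.801), and low for miR-1a (0.731).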

How the results depend on the processing

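The count of day 3 calls was 0 in 26 of 27 alternative settings, and with each array left out in turn (range 0 to 0). The exception was array weights, a fit that did not converge: it called 1 miRNA, miR-30d* at 0.36 (adjusted p = 0.0339 by limma), with 62 unadjusted p under 0.05 and with exposed replicate 2 and vehicle replicates 1, 4 and 5 among the low-weight arrays. The differences between days gave 0 calls in all 26 settings each. Over the named miRNAs, 2735 of 2888 recomputed values moved by less than the residual SD, 152 moved by more and 298 changed sign, none of them a called value. miR-10b ran from −0.04 to 1.20 within slides and stood at 0.23 to 0.25 in the value table and at 0.28 with normexp, where miR-504* was at 0.22. Of 658 recomputed list medians 100 changed sign. Slide as a fixed block left miR-10b at 0.73 and miR-504* at 0.66. Without a filter on detection 427 miRNAs were tested, 652 others lying at the floor on every array. Leaving out the dim vehicle replicates 4 and 6 was added after seeing the data. Within-slide values have no test. No paired analysis was possible because replicate numbers follow accession order.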

Other observations

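Of the 12 tested miRNAs with the widest gap between one day 3 heart and the next, 6 had vehicle replicate 5 at the top: miR-140, miR-140*, miR-199a-3p, miR-145, miR-214 and miR-199b*. miR-199a-3p was at 10.66 in that heart, against at most 10.11 in the other 9 mice, and miR-199b* at 10.02 against at most 9.55. Over all 29 arrays the highest miR-140 was 10.08 and the highest miR-140* 9.54, so a heart of another day exceeded it in both.

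miR-376c, miR-3063 and miR-302c ran from the floor to far above it within both groups. miR-3063 was at 7.49, 4.04, 6.58 and 7.10 in the exposed and 7.37, 6.37, 4.04, 4.55, 7.43 and 4.37 in the vehicle replicates, and miR-302c at 6.38, 4.04, 6.11 and 6.54 against 6.31, 5.52, 4.04, 4.28, 6.68 and 4.36. Exposed replicate 2 and vehicle replicates 3, 4 and 6 were the low ones for all 3. Exposed replicate 2 was the dimmest exposed array, at 22.1% of spots above background, and vehicle replicates 4 and 6 were the dimmest vehicle arrays. Vehicle replicates 3 and 5 were near each other, at 24.0% and 23.8%, but replicate 5 was high for all 3. The part of brightness was not tested. In the order given, the differences of these miRNAs were 0.63 ± 0.93, 0.62 ± 0.95 and 0.57 ± 0.78. These miRNAs were named after their values were seen.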
